A study of Homo sapiens with 2 samples.

Results

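HCN4-high and HCN4-negative cardiomyocytes were compared within 1 culture of the human embryonic line HES2 that was differentiated towards pacemaker cells resembling those of the sinoatrial node (SANLPC in the labels). The culture was measured by CITE-seq, in which each cell yields its polyadenylated RNA in 1 library and the barcode tags of an antibody against human CD34 in another. The cells had been dissociated, stained with that antibody and sorted as live singlets with DAPI. The labels name no genotype change, treatment or day of differentiation for the culture, and both groups of cells come from it. A barcode was taken as a cardiomyocyte when it held at least 1000 detected genes, at most 25% of its unique molecular identifiers (UMIs, counted molecules) in mitochondrial genes and 8000 to 30000 RNA UMIs. It also needed at least 2000 counts per 1000000 UMIs (CPM) of the cardiac troponin T gene TNNT2 and at most 4 UMIs summed over the epithelial genes VTCN1, GATA3, CLDN4 and WNT6. Of 14829 barcodes, 12119 passed the limits on genes and mitochondrial share, 9299 of these had the required depth, 4637 of these had the TNNT2 level and 4336 remained as cardiomyocytes. HCN4-high cells were the 596 (13.7%) with 4 or more HCN4 UMIs, and HCN4-negative cells were the 1122 (25.9%) with none. The remaining cells held 1 UMI (1175 cells) or 2 to 3 UMIs (1443 cells) and belonged to neither group, although their levels are given below as a gradient.

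HCN4 encodes the main subunit of the hyperpolarization-activated channel that carries the funny current in sinoatrial pacemaker cells. The channel opens when the membrane repolarizes, lets in a mixed inward current that helps to depolarize the cell towards the next beat, and is shifted to easier opening by cyclic AMP. Rhythmic release of calcium from the sarcoplasmic reticulum through the ryanodine receptor and its extrusion by the sodium-calcium exchanger add to the same depolarization. Pacemaker cells of the node are known for the transcription factors SHOX2, TBX3, TBX18 and ISL1, for T-type and low-threshold L-type calcium channels, and for a sparse contractile apparatus compared with working myocardium. HCN4 (ENSG00000138622) lies on chromosome 15 at positions 73319859 to 73368958 of GRCh38.p14 in the RefSeq annotation, a genomic span of 49.1 kb including introns.

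HCN4 UMIs chose the groups, so the HCN4 level is a description only. The highest count in any cardiomyocyte was 12 UMIs, and HCN4 summed to 258 CPM in HCN4-high cells. A cell at the median depth of the HCN4-negative group with 0 UMIs may still hold up to 199 CPM, taking 3 counts as the limit, so HCN4-negative means not detected at this depth. The limit of 4 UMIs fell within a continuous distribution. The 557 cells just outside it, with exactly 3 UMIs, and the 306 just inside it, with exactly 4, had median depths of 17496 and 17918.5 RNA UMIs. TTN stood at 9383 CPM in the cells with 3 HCN4 UMIs and at 10368 CPM in those with 4, and TBX3 at 236 and 240 CPM.

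Both groups were cardiomyocytes by their markers. All 10 cardiomyocyte markers fixed for this check were above 20 CPM, and their summed level was 59021 CPM in HCN4-high and 55377 CPM in HCN4-negative cells. TNNT2, which the selection used, was at 6972 and 7214 CPM, and MYL7, an atrial myosin light chain, at 12058 and 13805 CPM. The endothelial and blood markers PECAM1, CDH5, TEK and PTPRC were at 0 UMIs in HCN4-high cells, and the 6 genes of that list, CD34 included, summed to 11.9 CPM against 10.2 CPM. The neural crest marker SOX10 was at 0 in both. The 12 epithelial markers summed to 722 CPM in HCN4-high and 873 CPM in HCN4-negative cells. They include VTCN1, GATA3, CLDN4 and WNT6, which the selection capped, so this sum is no independent check. The 9 fibroblast and mesenchymal markers differed most, with 359 CPM against 842 CPM.

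The deposited matrix held 239181462 RNA UMIs and 2773855 antibody-tag UMIs over the 14829 barcodes, which both libraries share. HCN4-high cells were deeper, with a median of 18682 RNA UMIs and 4823 genes, against 15082.5 UMIs and 4234.5 genes in HCN4-negative cells. The groups summed to 11394129 and 17376969 RNA UMIs. The median mitochondrial share was 12.8% and 11.7%. Since a count limit favours deep cells, each count of genes below was also taken with HCN4-negative cells weighted to the depth distribution of HCN4-high cells. The cells of a single culture do not replicate it, and no p-value is given. Intervals are exact 95% intervals of the ratio of summed UMI counts. They cover counting error only.

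Among genes at 20 CPM or more in the higher group (6429 genes, with HCN4, mitochondrial and ribosomal protein genes left out), 761 were at least 25% higher in HCN4-high cells (11.8%) and 255 were at least 20% lower (a ratio of 0.8 or below, 3.97%). Higher and lower below refer to these limits. The median log2 ratio over all of them was 0.03. The highest ratios included those of MYOM2, CAPN3, GNAO1 and CACNA2D2, and the lowest those of SST, MGP, COL1A1 and COL1A2. The split between the directions depended on the scaling. With median-of-ratios size factors in place of totals, 392 genes were higher and 592 lower, because that scaling moved the median log2 ratio to -0.05. With HCN4-negative cells weighted by depth, 848 were higher and 429 lower. At a limit of 1.5-fold, 70 were higher and 63 lower.

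**Figure D1:**
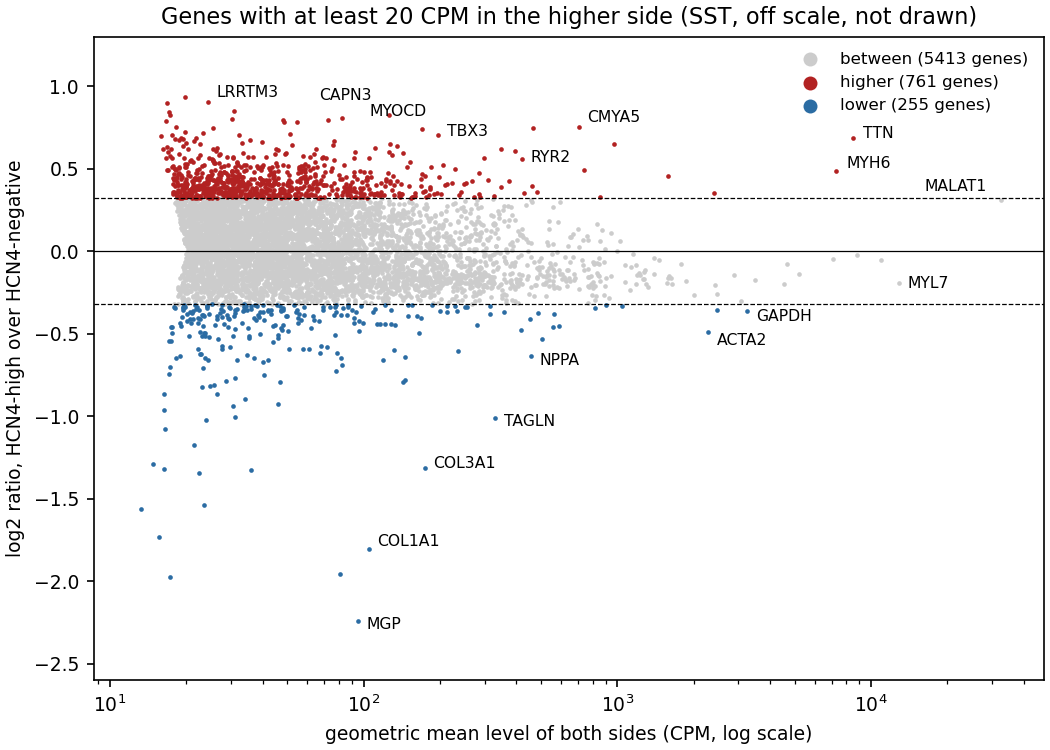
Each point is 1 of the 6429 measured genes, with the geometric mean of its CPM in both groups on a log x axis and the log2 ratio of HCN4-high over HCN4-negative cells on the y axis; dashed lines mark the limits of 25% above and 20% below equality, red points are the 761 higher and blue points the 255 lower genes. The lower genes reach further from 0 than the higher ones, and SST, at a log2 ratio of -5.60, lies off the scale.

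The 15 genes with the highest ratios among those at 50 CPM or more ranged from AL136171.2 at 1.77-fold to HIPK2 at 1.57-fold. MYOM2, which encodes an M-band protein that links thick filaments, was at 62.1 CPM in cells without HCN4 UMIs, 79.7 CPM with 1, 91.1 CPM with 2 to 3 and 109 CPM with 4 or more, a ratio of 1.75 (1.61 to 1.90). CMYA5, a costameric and Z-disc protein, stood at 542, 674, 770 and 915 CPM over the same 4 levels, a ratio of 1.69 (1.64 to 1.74). SYNM, the intermediate filament protein synemin, reached 63.2 CPM against 36.5 CPM. The choice of the 15 genes fixed the order of the end levels, and the levels at 1 and at 2 to 3 UMIs lay in order between them in all 15. The levels of 12 such genes across the 4 HCN4 classes are drawn in the plot of summed levels.

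**Figure D2:**
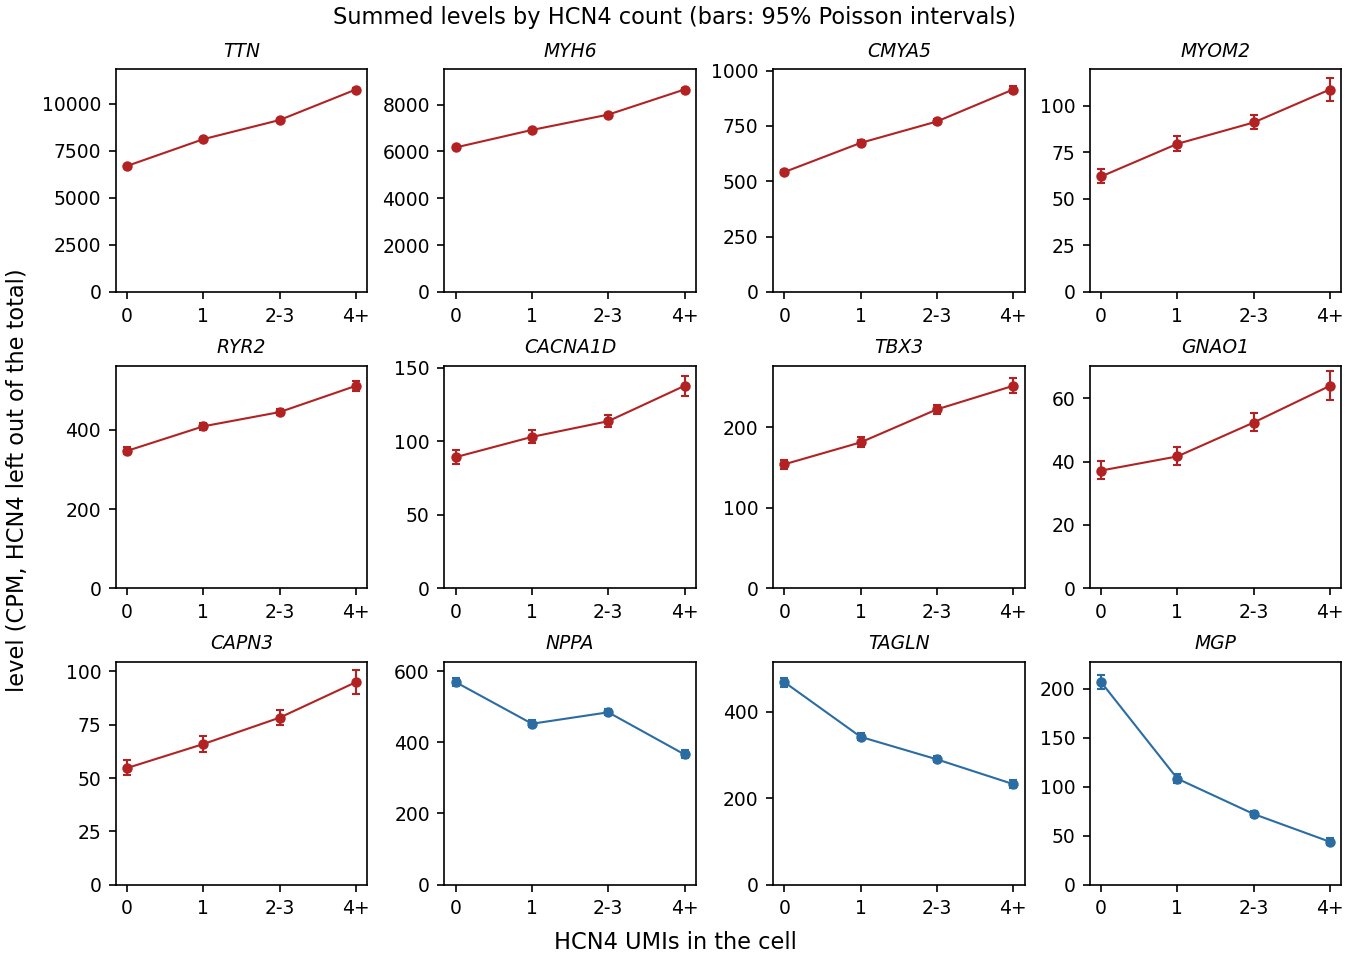
Each panel gives the summed level of 1 gene in CPM (y axis, from 0) in cardiomyocytes with 0, 1, 2 to 3 and 4 or more HCN4 UMIs (x axis), with 95% Poisson intervals as bars. The 9 genes in red climb at every step, TAGLN and MGP in blue decline at every step, and NPPA, also blue, has a higher value at 2 to 3 UMIs than at 1.

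The other leading genes were of several kinds. CAPN3, a muscle calpain that binds titin, was at 95 against 54.7 CPM (1.74-fold), and MYOCD, the myocardin coactivator of serum response factor, at 220 against 132 CPM (1.67-fold). GNAO1, an inhibitory G protein alpha subunit, was at 63.9 against 37.2 CPM (1.72-fold), and CACNA2D2, an auxiliary subunit of voltage-gated calcium channels, at 71.8 against 41.8 CPM (1.72-fold). TBX3, which represses working-myocardium genes in the conduction system, was at 252 against 154 CPM, a ratio of 1.63 (1.55 to 1.72). SAMD11, MYO18A, DAB1 and the kinase gene HIPK2 were between 1.57-fold and 1.64-fold higher. EMC10, a subunit of the membrane protein insertion complex of the endoplasmic reticulum, was at 601 against 358 CPM (1.68-fold).

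The distribution of EMC10 over cells differed from that of MYOM2, CAPN3 and MYOCD. At a common depth of 8000 UMIs, 25.8% of HCN4-high and 23.5% of HCN4-negative cells held an EMC10 UMI (28.7% and 26.8% without thinning), although its summed level differed 1.68-fold, and single cells held up to 248 and 204 UMIs. For MYOM2, the same shares were 54.5% and 36.5%, against 4.12% of the 4662 cells of the same filter and depth range with TNNT2 under 2000 CPM. CAPN3 was found in 46.6% and 30.4% of cells (3.20% of those other cells), and MYOCD in 78.2% and 57.0% (4.87%). Without thinning, the MYOM2 shares were 79.7% and 53.4%, the CAPN3 shares 65.9% and 42.3% and the MYOCD shares 94.1% and 75.4%, at median depths of 18682 UMIs in HCN4-high and 17738 UMIs in the other cells.

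Of 19 genes listed as enriched in pacemaker cells, 13 were measured, 7 were higher and none was lower, beside 11.8% higher and 3.97% lower over all measured genes. Their median log2 ratio was 0.33 against 0.03 over all measured genes. Their median genomic span was 117 kb, and of all measured genes spanning 100 to 300 kb 26.5% were higher. Set against the median of each gene's own length class, the list's median was 0.14. HCN2 and HCN3, which encode other subunits of the same channel family, stayed under 2 CPM in both groups. CACNA1D, the low-threshold L-type calcium channel Cav1.3, was at 89.2, 103, 114 and 138 CPM over the 4 HCN4 levels, a ratio of 1.54 (1.44 to 1.66). CACNA1G, the T-type channel Cav3.1, was at 27.0, 29.5, 33.8 and 37.0 CPM (1.37-fold), and GJC1, the slow-conducting connexin 45, at 89.6, 97.8, 107 and 125 CPM (1.40-fold). IGFBP5, an insulin-like growth factor binding protein, was at 1217 against 774 CPM (1.57-fold). NECAB1, a neuronal calcium-binding protein, was at 53.2 against 41.6 CPM (1.28-fold). VSNL1, another calcium sensor of the list, was at 273 against 256 CPM, and BMP4 at 229 against 234 CPM, both between the limits.

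Transcription factors of the node moved in both directions. Of 13 measured, TBX3, TBX18 and TBX5 were higher, 2 were lower, TBX2 among them, and 8 lay between the limits, with a median log2 ratio of 0.18. Over all measured genes, 11.8% were higher and 3.97% lower. TBX18, a factor of sinus venosus progenitors, was at 78.3, 87.3, 97.0 and 107 CPM over the 4 HCN4 levels, a ratio of 1.37 (1.27 to 1.48). SHOX2, which holds the working-myocardium factor NKX2-5 in check in the node, was at 507, 557, 564 and 611 CPM, a ratio of 1.21 that did not reach the limit. ISL1 was at 74.7, 74.2, 71.2 and 68.3 CPM, the opposite direction, with a ratio of 0.914. TBX2, a repressor related to TBX3, was at 46.6, 34.3, 31.6 and 25.1 CPM (0.539-fold). TBX3 and TBX2 thus lay on opposite sides although both are T-box repressors of the conduction system.

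The shares of cells showed the same limits. At 8000 UMIs, TBX3 was found in 59.4% of HCN4-high and 47.9% of HCN4-negative cells, and in 40.4% of the cells with low TNNT2. SHOX2 was found in 96.5% and 93.8%, and in 12.5% of the cells with low TNNT2. ISL1 was found in 36.7% and 40.4%, and in 19.5%. NKX2-5 was found in 10.2% and 10.1%, and in 0.601%. For NKX2-5 the shares of both groups were thus within each other's exact binomial intervals (7.92 to 13.0% and 8.37 to 12%), and its summed level was 26.4 against 28.8 CPM. The shares without thinning were 74.5% and 60.7% for TBX3, 99.3% and 97.1% for SHOX2, 59.1% and 57.0% for ISL1, and 17.3% and 13.5% for NKX2-5.

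Genes of the other ion channels and of calcium handling are to be read beside the same 11.8% higher and 3.97% lower over all measured genes. Of 13 voltage-gated calcium and sodium channel genes, 7 were measured and 4 were higher, among them CACNA1D, CACNA1G and CACNA2D2, with a median log2 ratio of 0.41. Their median span was 319 kb, and of all measured genes spanning over 300 kb 38.8% were higher. Against their length classes, the median of these channel genes was 0.20. Of 8 measured potassium channel genes, the calcium-activated channel KCNN2 was higher (1.28-fold), KCNG1, a modifier of delayed rectifiers, was lower (83.2 against 55.8 CPM, 0.671-fold), and 6 lay between. KCNJ3 and KCNJ5, which form the acetylcholine-gated potassium channel, were at 1.11-fold and 1.23-fold. Of 17 measured genes of the sarcoplasmic reticulum and calcium cycling, 5 were higher and none was lower, at a median log2 ratio of 0.24 and 0.06 against their length classes. RYR2, the calcium release channel, was at 347, 409, 445 and 511 CPM over the HCN4 levels, a ratio of 1.47 (1.42 to 1.53). ATP2A2, the calcium pump SERCA2, was at 2712 against 2119 CPM (1.28-fold) and SLC8A1, the sodium-calcium exchanger, at 963 against 766 CPM (1.26-fold). CAMK2D, a calcium-dependent kinase, and SRL, the luminal protein sarcalumenin, were at 1.26-fold and 1.27-fold. PLN, the inhibitor of SERCA2, differed less, at 877 against 838 CPM, and the calmodulin genes CALM2 and CALM3 were at log2 ratios of -0.06 and 0.00.

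The genes that link the autonomic nerves to the pacemaker current included 4 higher and 1 lower of 19 measured, with a median log2 ratio of 0.20. Their median span was 138 kb, in the class where 26.5% of all genes were higher, and their median against the length classes was 0. ADCY5, an adenylyl cyclase that makes cyclic AMP, was at 79.4 against 60.3 CPM (1.32-fold), ADRB1, the beta-1 adrenoceptor, at 61.0 against 48.2 CPM (1.27-fold), and CHRM2, the M2 muscarinic receptor, at 128 against 101 CPM (1.27-fold). The fourth was GNAO1, described above, and the lower one was GNAI2, another inhibitory alpha subunit, at 0.793-fold. The stimulatory subunit gene GNAS was at 1754 against 1989 CPM, between the limits. Among 8 measured ion pump and transporter genes, 4 were higher, SLC4A4 and SLC8A1 among them. Many of these ratios were close to the limit. With size factors as the scaling, 1 calcium-cycling gene was higher, 1 autonomic gene was higher and 1 lower, and 5 pacemaker-enriched genes were higher. Over all measured genes, 6.11% were then higher and 9.23% lower.

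The sarcomere genes were in 2 lists that also differ in genomic span. The first was drawn up as long sarcomere genes, mainly of titin, the thick filament, the Z-disc and the M-band. Of its 23 measured genes, 11 were higher and none was lower, with a median log2 ratio of 0.31. The second was drawn up as thin filament and myosin light chain genes. Of its 19 measured genes, none was higher and 2 were lower, with a median of -0.13. The lists are not clean by protein kind. The first holds LMOD2 and TMOD1 of the thin filament ends. The second holds the Z-disc genes CSRP3 and TCAP and the metabolic genes FABP3 and CKM. Over all measured genes, 11.8% were higher and 3.97% lower. The median span, introns included, was 78.1 kb in the first list and 13.5 kb in the second, so kind of protein and gene length are not separated by this comparison. Set against the median of each gene's own length class, the list medians were 0.20 and -0.05. TTN, the giant spring of the sarcomere, was at 6692, 8111, 9127 and 10747 CPM over the 4 HCN4 levels, a ratio of 1.61 (1.59 to 1.62). MYH6, the atrial-type fast myosin heavy chain, was at 6171, 6917, 7572 and 8644 CPM, a ratio of 1.40. The Z-disc genes LDB3 and MYPN, for cypher and myopalladin, were at 1.48-fold and 1.58-fold, and NEBL, FHOD3, MYH7B and LMOD2 between 1.28-fold and 1.39-fold. The thin filament genes ACTC1, TPM1 and TNNC1 lay near equality, with log2 ratios of -0.02, -0.05 and -0.08. ACTA2, the smooth muscle actin that immature cardiomyocytes also carry, was at 2704, 2299, 2142 and 1929 CPM (0.713-fold), and CSRP3, the muscle LIM protein, at 688 against 503 CPM (0.731-fold). DES, the muscle intermediate filament desmin, was at 2202 against 1832 CPM, between the limits. With size factors, 10 genes of the first list were higher and 1 was lower, and 5 of the second list were lower. The shares over all measured genes were then 6.11% higher and 9.23% lower.

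Genes of BMP and retinoic acid signalling, which pattern the venous pole of the heart, included 6 higher and 1 lower of 18 measured, at a median log2 ratio of 0.12, beside 11.8% higher and 3.97% lower over all measured genes. SMAD6 and SMAD7, inhibitors that BMP and TGF-beta signals induce, were at 55.9 against 36.4 CPM (1.54-fold) and 162 against 122 CPM (1.33-fold). SMAD9, a BMP-responsive SMAD, was at 94.4 against 60.5 CPM (1.56-fold) and the ligand BMP7 at 1.36-fold. The immediate BMP targets ID1, ID2 and ID3 were at log2 ratios of -0.03, 0.00 and -0.11. In the retinoic acid group, the synthesizing enzyme ALDH1A1 was at 257 against 193 CPM (1.33-fold) and the receptor RARB at 23 against 15.3 CPM, while the binding protein CRABP2 was lower at 22.1 against 42.4 CPM (0.522-fold). Among 15 measured genes of cell adhesion and the intercalated disc, desmoplakin (DSP, 1.31-fold), NCAM1 (1.26-fold) and SIRPA (1.27-fold) were higher and none was lower. With size factors, none of the 15 was higher and 1 was lower, beside 6.11% higher and 9.23% lower over all measured genes.

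The lower genes were fewer and their ratios were larger. MGP, matrix Gla protein, an inhibitor of calcification, was at 206, 108, 72.1 and 43.7 CPM over the 4 HCN4 levels, a ratio of 0.212 (0.192 to 0.233). The fibrillar collagen genes COL1A1, COL1A2 and COL3A1 were at 56.1 against 196 CPM, 41.1 against 159 CPM and 111 against 275 CPM. TAGLN, the smooth muscle protein transgelin, was at 469, 342, 290 and 233 CPM (0.497-fold), and the intermediate filament vimentin (VIM) at 112 against 192 CPM (0.583-fold). LGALS1, IER3, IGFBP7, S100A11, BST2, PTN, CDKN1C and LY6E completed the lowest 15, between 0.399-fold and 0.628-fold. The end levels were again fixed by the choice of the 15 genes, and the levels between lay in order in all 15.

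Part of the lower side rested on few cells. SST, the peptide hormone somatostatin, had the lowest ratio (1.84 against 89.4 CPM), but 96.7% of its UMIs in the HCN4-negative group came from 5 cells, 1 of which held 436 UMIs. At 8000 UMIs it was found in 1.01% of HCN4-high and 1.69% of HCN4-negative cells, with overlapping exact binomial intervals (0.370 to 2.18% and 1.02 to 2.63%), and without thinning in 2.85% and 2.58%. For COL1A2 the 5 highest cells held 22.6% of the counts, and for COL1A1 21.4%. The shares of cells differed less than the levels. MGP was found in 13.1% and 17.7% of cells at 8000 UMIs and COL1A1 in 23.7% and 28.3%, against 22.4% and 54.8% of the cells with low TNNT2. Without thinning the MGP shares were 22.3% and 24.4% and the COL1A1 shares 40.3% and 41.0%.

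Markers of fibroblasts moved with these genes. Of 9 fibroblast and mesenchymal markers, 7 were measured, COL1A1, COL1A2, COL3A1, DCN, POSTN and FN1 were lower, and PDGFRA was higher (59.9 against 43.4 CPM, 1.38-fold). Over all measured genes, 3.97% were lower and 11.8% higher. Clusters of the cardiomyocytes, computed without HCN4, included a cluster of 56 cells led by DLK1, LAMP5, THY1, PLA2G2A and DCN, to which 1 HCN4-high and 20 HCN4-negative cells belonged. Another of 15 cells, led by HAPLN1, NPY and IGFBP3, held 1 and 11. Without both clusters, a choice made after seeing the data, MGP was at 0.238-fold, COL1A1 at 0.441-fold, COL1A2 at 0.382-fold, COL3A1 at 0.587-fold and LGALS1 at 0.650-fold, and FN1 moved to 0.957-fold. The total was then 754 higher and 238 lower genes. The part of fibroblast transcripts in the remaining difference was not tested.

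NPPA, the atrial natriuretic peptide and a gene of working atrial myocardium, was at 569, 452, 484 and 366 CPM over the HCN4 levels, a ratio of 0.643. Its share of cells had the opposite order, with 59.2% of HCN4-high and 54.1% of HCN4-negative cells at 8000 UMIs, against 8.99% of the cells with low TNNT2. Without thinning, the shares were 73.2% and 64.2%. The 5 highest cells held 14.6% of the NPPA counts of the HCN4-negative group. Of 6 measured genes of working myocardium, 2 were higher, PAM among them, and NPPA was the lower one. Over all measured genes, 11.8% were higher and 3.97% lower.

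Metabolic and stress genes showed small shifts, to be read beside 11.8% higher and 3.97% lower over all measured genes. None of 21 nuclear-encoded genes of oxidative phosphorylation passed either limit, with a median log2 ratio of -0.14 and a range from -0.22 to 0.02. Their median span was 8.04 kb, and set against the median of each gene's own length class their median was -0.01. GAPDH was the single lower gene of 17 measured in glycolysis, at 2870 against 3684 CPM (0.779-fold), and the median was -0.09. Of 14 measured immediate early and stress genes, JUNB, DUSP1 and ATF3 were lower. The 13 mitochondrially encoded genes had a median ratio of 1.12 (range 1.01 to 1.78), and 88 genes taken as ribosomal protein genes a median ratio of 0.885. Ribosomal protein genes were picked by symbol throughout. The set therefore also holds a few other genes, such as the S6 kinase gene RPS6KB1, whose ratio of 1.35 was its highest. These were likewise left out of the 6429 measured genes. The zinc exporter SLC30A1 and the metallothionein MT1X were higher, at 1.37-fold and 1.26-fold. Metallothionein genes are near-identical copies, so the value of MT1X is uncertain.

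Cell cycle genes changed direction with the way the groups were balanced. Of 17 measured, MKI67 (169 against 109 CPM), TOP2A (177 against 117 CPM) and CENPF (248 against 172 CPM) were higher and none was lower, at a median log2 ratio of 0.19. Cells with 5 or more UMIs summed over the list made up 55.0% of HCN4-high and 45.2% of HCN4-negative cells. With HCN4-negative cells weighted to the same depth, none of the 17 was higher, 7 were lower and the median was -0.29. When these cells were left out, 1 was higher, 7 were lower and the median was -0.21. Weighted instead to the share of UMIs in long genes, described next, 11 were higher and none was lower. Over all measured genes, 11.8% were higher and 3.97% lower without weighting, and 13.1% and 6.62% with depth weighted. These shares were 13.6% and 6.61% without the cells with 5 or more such UMIs. With the long-gene share weighted they were 3.04% and 4.43%. No direction is therefore given for the cell cycle.

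The comparison also asked whether long or unspliced genes account for the difference. Gene span, the genomic distance from the first to the last base with introns included, was taken from RefSeq for 6402 of the 6429 measured genes (99.6%). The median span was 98.7 kb in higher genes, 29.8 kb in genes between the limits and 10.4 kb in lower genes. Among genes under 10 kb, 2.24% were higher and 9.48% lower. From 10 to 30 kb the shares were 4.88% and 4.07%, from 30 to 100 kb 12.6% and 2.05%, from 100 to 300 kb 26.5% and 1.54%, and over 300 kb 38.8% and 1.20%. The median log2 ratio climbed over the same classes, from -0.15 through -0.06, 0.10 and 0.21 to 0.27. The medians of genes over 100 kb and under 10 kb differed by 0.37 on the log2 scale. Spearman's rho between span and log2 ratio was 0.537 across the 6402 genes, which share the same cells and are not independent replicates.

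**Figure D3:**
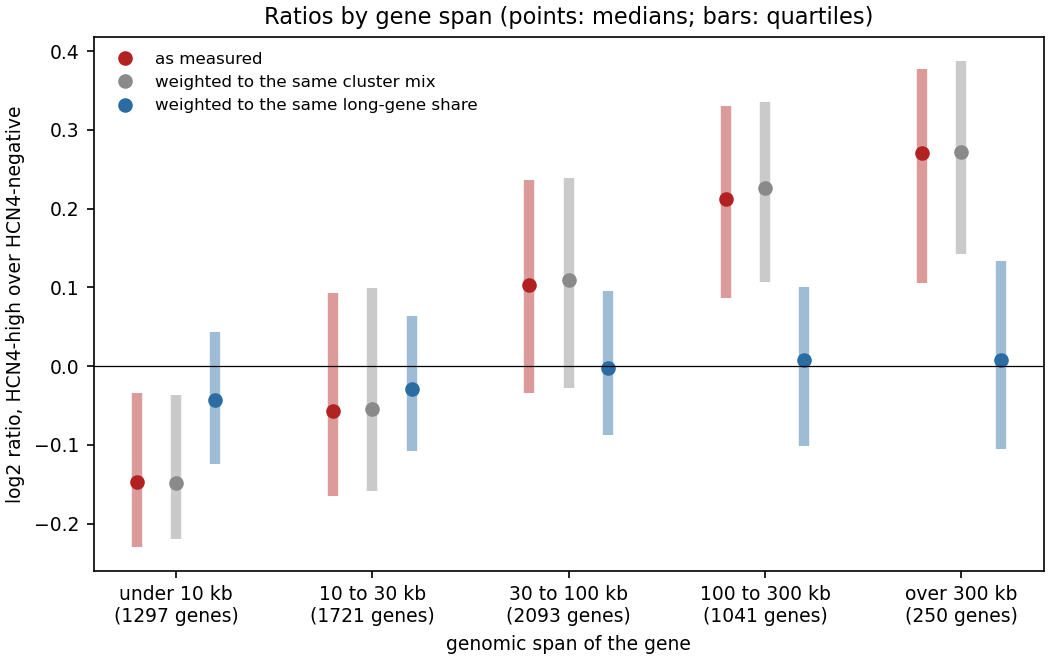
Log2 ratios of HCN4-high over HCN4-negative cells (y axis) are shown for 5 classes of gene span (x axis) as medians (points) and quartiles (bars), as measured (red), with HCN4-negative cells weighted to the cluster mix of HCN4-high cells (grey) and weighted to their long-gene share (blue). Red and grey medians climb with span from -0.15 to 0.27, and blue medians stay between -0.04 and 0.01.

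The relation with span held in each range of expression. Among genes with a mean of 20 to 50 CPM, the median log2 ratio was -0.12 under 10 kb and 0.23 over 300 kb. Between 50 and 200 CPM the values were -0.15 and 0.29, and over 200 CPM -0.17 and 0.33, the last from 14 genes. In 108 long noncoding RNAs the medians were 0.03 under 10 kb and 0.23 from 100 to 300 kb, from 52 and 13 genes. Weighting HCN4-negative cells to the cluster mix of HCN4-high cells left the medians of the shortest and longest classes at -0.15 and 0.27, and weighting them to the same depth left them at -0.15 and 0.26.

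The same was seen as a share of RNA in each cell. Genes spanning over 100 kb held 10.3% of the RNA UMIs of cells without HCN4 UMIs, 10.8% with 1, 11.3% with 2 to 3 and 12.1% with 4 or more. The difference between HCN4-high and HCN4-negative cells was 1.77 percentage points. TTN alone made up 1.07% and 0.669% of UMIs, and without TTN the long-gene shares were 11% and 9.65%. Read in the other direction, HCN4 was at 52.4 CPM in the lowest of 10 equal bins of cardiomyocytes ordered by long-gene share and at 148 CPM in the highest, and HCN4-high cells made up 1.38% and 27.0% of those bins. Median depth differed little along this order, with 15859 UMIs in the lowest bin and 17342 in the highest, and the median mitochondrial share was 12.3% and 11.2%.

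**Figure D4:**
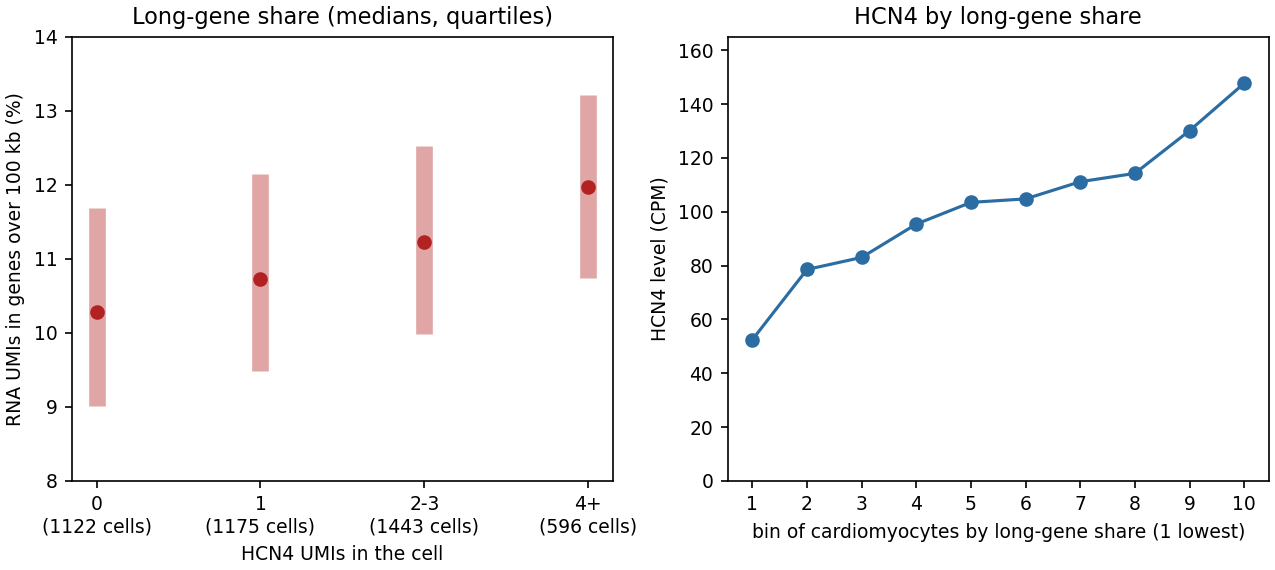
Left, the percent of each cell's RNA UMIs in genes spanning over 100 kb (y axis, from 8%) in cells with 0, 1, 2 to 3 and 4 or more HCN4 UMIs, as medians (points) and quartiles (bars). Right, the HCN4 level in CPM (y axis) in 10 equal bins of the cardiomyocytes ordered by long-gene share (x axis), which climbs at every step from 52.4 to 148 CPM.

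Spliced and unspliced RNA cannot be told apart in the matrix, which holds 1 count per gene, and whether intronic reads were counted is not given in the sources used here. Gene span is therefore the closest measure at hand, together with RNAs that remain in the nucleus. MALAT1, a nuclear speckle RNA, had a median share of 3.49% of UMIs in HCN4-high and 2.82% in HCN4-negative cells, and NEAT1, the scaffold of paraspeckles, 0.155% and 0.105%. Of 8 measured nuclear-retained and long noncoding RNAs, 4 were higher and none was lower, at a median log2 ratio of 0.36. Over all measured genes 11.8% were higher and 3.97% lower, and over the 108 measured long noncoding RNAs 19.4% and 1.85%. The median span of the list was 61.2 kb, and its median against the length classes was also 0.36. NEAT1 was at 1.37-fold, SNHG14 at 1.53-fold, FTX at 159 against 106 CPM and NORAD at 1.32-fold, and MALAT1, with a span of 8.78 kb, at 1.24-fold. NORAD, with a span of 5.34 kb, is largely cytoplasmic and also lay on the higher side. Of 12 measured transcripts of cytoplasmic housekeeping genes, none was higher, ACTB and GAPDH were lower, and the median was -0.19. Their median span was 3.65 kb, and against the length classes their median was -0.05. The median share of ribosomal protein transcripts was 9.64% in HCN4-high and 10.8% in HCN4-negative cells.

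With HCN4-negative cells weighted to the long-gene share of HCN4-high cells, 197 genes were higher (3.04%) and 287 lower (4.43%) of 6483 measured. The medians of genes over 100 kb and under 10 kb then differed by 0.051, which follows in part from the weighting, since the same genes define the share. Genes that the text names divided under this weighting. Of 72 named higher genes, 36 stayed past the limit, and of 41 named lower genes, 37 did. Of the 15 leading higher genes, 12 stayed past the limit, and EMC10, TTN (1.21-fold) and MYO18A (1.14-fold) did not. All 15 leading lower genes stayed past it.

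Single genes moved to different extents under this weighting. TBX3, which spans 13.9 kb, was at 1.53-fold after the weighting and IGFBP5 at 1.57-fold. GNAO1 was at 1.73-fold, CACNA2D2 at 1.65-fold, CAPN3 at 1.62-fold and MYOM2 at 1.59-fold, although 3 of these 4 span over 100 kb. CACNA1D moved to 1.19-fold, RYR2 to 1.18-fold, MYH6 to 1.16-fold and TBX18 to 1.13-fold. MALAT1 moved to 1.001-fold. No gene of the calcium-cycling list stayed past the limit, and the nuclear RNA list had none higher and 1 lower, with a median log2 ratio of 0.03. The median of the pacemaker-enriched list was 0.23, with 4 of 13 higher, and that of the titin, thick filament and Z-disc list 0.10, with 6 higher and 2 lower. Under this weighting 3.04% of all measured genes were higher and 4.43% lower. The thin filament list moved from a median of -0.13 to 0.03.

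**Figure D5:**
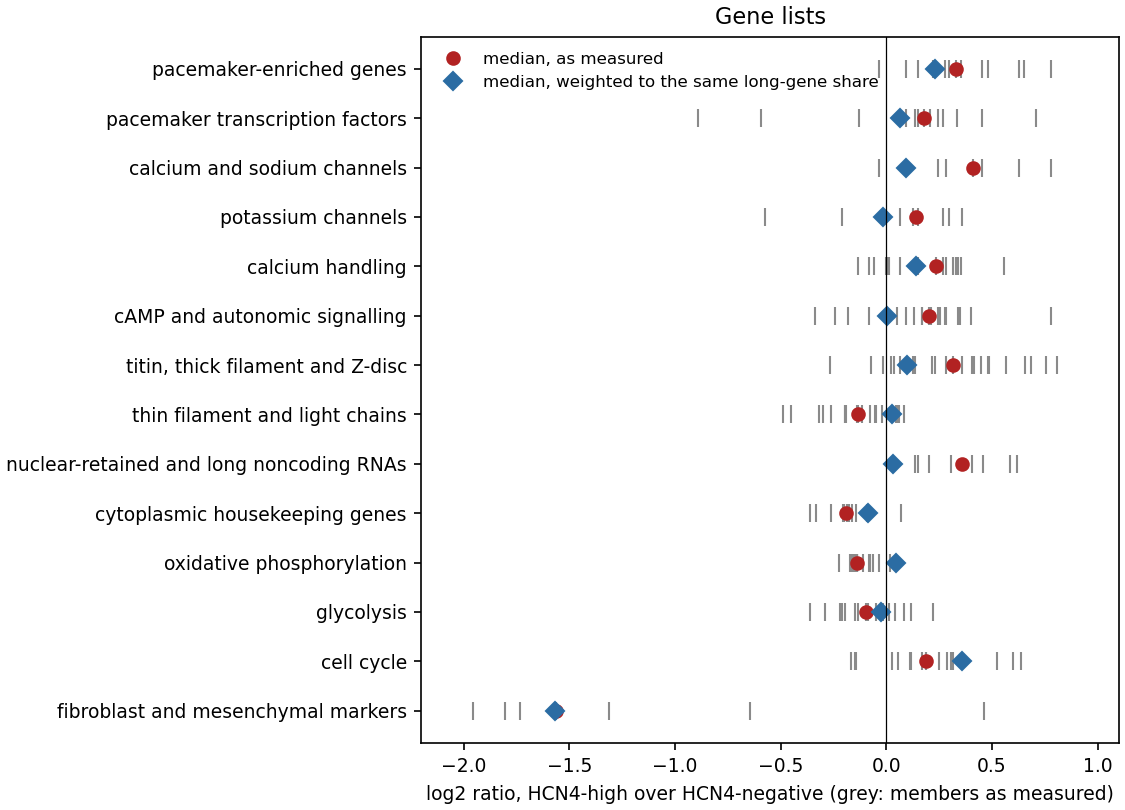
For 14 gene lists (y axis), grey ticks give the log2 ratio of each measured member (x axis), red circles the list's median as measured and blue diamonds the median with HCN4-negative cells weighted to the long-gene share of HCN4-high cells. The nuclear RNA median moves from 0.36 to 0.03 and the pacemaker-enriched median from 0.33 to 0.23, while the fibroblast median is -1.56 and -1.57.

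The genes were also compared within length classes. When each gene was set against the median of its own class, 356 genes were higher (5.56%) and 309 lower (4.83%) of 6402. Among genes under 10 kb, the highest ratios were those of RTL5, MIR133A1HG, HAMP, CIART and TRIM73, between 1.61-fold and 1.49-fold. HAMP, the iron hormone hepcidin, was at 114 against 74.9 CPM, and TRIM73 has near-identical copies, so its value is uncertain. The lowest were SST, MGP, SFRP2, LGALS1 and OLFML3, of which SFRP2, a secreted WNT antagonist, was at 10.4 against 25.9 CPM. Among genes over 100 kb, the highest were LRRTM3, a synaptic adhesion protein, at 33.4 against 17.9 CPM (1.87-fold), then MYOM2, PLEKHA6, GNAO1 and CACNA2D2. The lowest long genes were COL14A1, GPC3, SPON1, PTN and EPSTI1, of which the collagen gene COL14A1 was at 13.8 against 39.9 CPM (0.345-fold). These 5 long genes were chosen for their low ratios, and their direction is a description only.

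Other genes used to split the same cardiomyocytes by the same limits gave smaller or no differences by span. For TBX18, which spans 32.1 kb, 506 cells with 4 or more UMIs and 1357 with none differed by 0.30 between genes over 100 kb and under 10 kb. For TBX3 (13.9 kb) the value was 0.11, and for NPPA (2.08 kb) -0.03. For ISL1 (11.3 kb) the medians of the long and short genes were equal to 2 decimals, at -0.01 each. The median depths of the high and zero cells were 18682 and 15082.5 UMIs for HCN4, 19469 and 14980 for TBX18, 19575 and 15408.5 for ISL1, 16700.5 and 16105.5 for TBX3, and 17139 and 15955.5 for NPPA. The splits share many of their cells, and the 5 genes differ in level as well as span, so the values are a description.

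HCN4-high cells were found in all 14 clusters of the selected cells, in unequal shares, with 1 cell each in the clusters led by DLK1 and by HAPLN1. The 10 fixed cardiomyocyte markers were absent from the leading genes of all 14 clusters. All clustered cells had been selected for TNNT2, so this absence does not bear on the identity of any cluster. The leading genes of the DLK1 cluster include DCN, a marker of the fibroblast list, and the epicardial marker UPK3B. TBX3 at 4 or more UMIs was present in 41.8% of HCN4-high (exact binomial interval 37.8 to 45.9%) and 22.5% of HCN4-negative cells (20.1 to 25.1%). The cluster led by MYL3, LRRTM3, MT1E, TBX3, MT1G, GNAO1 and CAPN3 held 21.5% of HCN4-high and 11.7% of HCN4-negative cells. The cluster of 75 cells led by GJA5, ALDH1A2 and HAMP held 16 HCN4-high and 14 HCN4-negative cells, and its HCN4 level, 133 CPM, was next to the 132 CPM of the MYL3 cluster. A cluster led by HRK, SLCO5A1 and TBX2 held 2.35% of HCN4-high and 6.77% of HCN4-negative cells. The cluster led by RCAN2 and SERPINF1, with GJA5, held 12.2% and 10.2%, and the NKX2-5 and LMOD2 cluster 2.52% and 4.37%. Genes picked for such types on these same cells, and thus no independent evidence, did so in part. CAPN3 and LRRTM3 were higher and MYL3 was at 1.06-fold. KCNG1 and MYLK were lower and AARD was at 1.04-fold. With HCN4-negative cells weighted to the cluster mix of HCN4-high cells, 741 genes were higher and 147 lower, and all 30 leading genes stayed past the limit. TBX3 was then at 1.39-fold, GNAO1 at 1.45-fold, RYR2 at 1.42-fold and COL1A1 at 0.557-fold, and FN1 moved to 1.05-fold.

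CD34 protein, read by the antibody tag that the selection did not use, was higher on the HCN4-high side. The median was 84 tag UMIs per cell without HCN4 UMIs (quartiles 45 and 245.5), 86 with 1, 94 with 2 to 3 and 123.5 with 4 or more (quartiles 55.5 and 463.5). The groups overlapped widely, and the ratio of the medians was 1.47. It was 1.09 when HCN4-negative cells were weighted to the TBX3 classes of HCN4-high cells, and 1.11 among cells with at most 10% mitochondrial UMIs. CD34 transcripts were at 10.6 against 6.85 CPM, a ratio of 1.55 (1.19 to 2.01), under the floor of 20 CPM. They were found in 7.21% and 4.37% of cells at 8000 UMIs, in 12.8% and 7.75% without thinning, and in 0.300% of the cells with low TNNT2. Across clusters, the median tag count ranged from 48 to 367 UMIs, and the highest was in the cluster led by MYL3, LRRTM3 and TBX3.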

How the data were processed

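RNA and CD34 antibody-tag libraries of 1 culture were analysed as deposited. The authors used Cell Ranger 6.1.2 with GRCh38, per the submitters' processing notes, and deposited whole-number UMI counts for 36601 genes and the tag; other settings are not given in the sources used here. Counts were summed over the cells of each group and scaled to CPM without HCN4. Genes at 20 CPM or more in the higher group were measured and called higher at 25% or more above equality and lower at a ratio of 0.8 or below. Named genes were the 15 highest and 15 lowest ratios at 50 CPM or more, the 5 highest and lowest under 10 kb and over 100 kb, and the members of fixed lists, some of which are not reported here. The groups, lists and rules were chosen with earlier results of these data known. Spans came from RefSeq (GRCh38.p14), matched by symbol. Weighted comparisons gave HCN4-negative cells weights so that their distribution over depth (bins of 2000 UMIs), long-gene share (10 bins), TBX3 class or cluster equalled that of HCN4-high cells. Clusters (14) came from scanpy 1.11.5 with 2000 variable genes, 30 components, 15 neighbours and Leiden resolution 1. Scrublet called 1401 of 12119 cells doublets (11.6%), 12 of them HCN4-high and 36 HCN4-negative. These were kept, and removed in an alternative. Thinning drew 8000 UMIs per cell, which left out no cell. Scripts were tested on simulated data and used Python 3.11.15, numpy 2.4.6, scipy 1.17.1 and pandas 2.3.3. With 1 culture, precision over cultures is unknown, and intervals cover counting error only.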

Additional observations from a re-analysis of the deposited data

How the results depend on the processing

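No paired analysis was possible because the study holds 1 culture, and for the same reason no replicate could be left out. The 761 higher and 255 lower genes became 315 and 120 at a floor of 50 CPM, 1177 and 450 at 10 CPM, 5453 and 3228 with no floor, and 392 and 592 with size factors, where 39.8% of calls were higher in place of 74.9%. They were 1396 and 562 with HCN4 at 6 or more UMIs, 1604 and 614 among cells with at most 10% mitochondrial UMIs (126 and 347 cells) and 70 and 63 at 1.5-fold. Fewer cells or lower floors leave smaller counts per gene. Weighting to the long-gene share gave 197 higher genes, to the share without TTN 196 (added after seeing the data), and setting genes against their length class 356 (also added). The lower genes were 429 with depth weighted, 398 with HCN4 at 250 CPM or more, 417 without cycling cells and 147 with clusters weighted. The cause of these changes was not tested.

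The difference between genes over 100 kb and under 10 kb (0.37) was 0.39 and 0.35 at floors of 50 and 10 CPM, 0.28 with no floor, 0.32, 0.47 and 0.40 with HCN4 at 3 UMIs, 6 UMIs and 250 CPM, and 0.43 at 10% mitochondrial UMIs. It was 0.051 with the long-gene share weighted and 0.093 with that share taken without TTN. In the other 12 alternatives it lay between 0.35 and 0.38. The long-gene share difference (1.77 points) was 1.67 within 12000 to 20000 UMIs, 1.4995, 2.29 and 1.92 with HCN4 at 3 UMIs, 6 UMIs and 250 CPM, 1.88 without cycling cells, 1.83 with TNNT2 at 4000 CPM, 2.17 at 10% mitochondrial UMIs, and 1.71, 1.86 and 1.82 with TBX3 classes, clusters and mitochondrial share weighted. It was 0.118 with the share itself weighted, 0.391 with it weighted without TTN, and 0.376 for genes over 300 kb. The CD34 tag ratio (1.47) was 1.11 at 10% mitochondrial UMIs and 1.09 with TBX3 classes weighted, and lay between 1.14 and 1.73 in the other 14 alternatives.

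Of 113 named genes past a limit, 107 kept their direction in 18 alternatives and 52 stayed past it in all. The log2 ratio changed sign for NECAB1 (-0.024, TBX3 classes weighted), KCNN2 (-0.058) and NEAT1 (-0.025, both with the long-gene share weighted), TOP2A (-0.063 with depth weighted and -0.42 without cycling cells), CENPF (-0.55 without cycling cells) and FN1 (0.071, clusters weighted).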
